A study of Homo sapiens with 4 samples.

Results

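The SR proteins and heterogeneous nuclear ribonucleoproteins (hnRNPs) are the RNA-binding proteins that, beside the spliceosome itself, decide which exons enter an mRNA. They were taken as the genes of the count table whose symbol is SRSF with a number, starts with HNRNP, or is TRA2A, TRA2B, PTBP1, PTBP2, SYNCRIP or RALY. These are 37 of the 18917 genes in the table, 14 SR proteins (12 SRSF genes and both TRA2 genes) and 23 hnRNPs, on 17 chromosomes. Of these, 36 passed the filter of at least 1 CPM (a gene's counts as a share of the scaled library) in at least 2 libraries and were tested. The exception was HNRNPH2.

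The libraries came from WT HEK293 cells and from HEK293 cells in which THUMPD1 was knocked out (KO) with CRISPR-Cas9, 2 libraries per genotype. HEK293 is an immortalized line from human embryonic kidney, called HEK-293T in the study's text, and both genotypes were grown in DMEM with 10% serum and 2 mM glutamine. KO cells were isolated by sorting single cells, so that the genotype and the clone cannot be told apart, and the labels do not say whether the libraries of 1 genotype are separate cultures, so that p-values measure only the spread between these libraries. THUMPD1 is the adaptor that lets the acetyltransferase NAT10 form N4-acetylcytidine in serine and leucine tRNAs, and the comparison asks how the RNA content of the cell differs without it. THUMPD1 itself, which lies on chromosome 16, was counted 356 and 468 times in the WT and 71 and 58 times in the KO libraries (log2 fold change -2.93, SE 0.17, adjusted p = 1.27e-12). Total counts ran from 7875722 to 11362363 per library, and 2748 of 13128 tested genes differed at an adjusted p under 0.05. Of 10 marker genes of HEK293 cells, 8 were at 1 CPM or more in every library and PAX8 was under 1 CPM in all, while of 12 markers of blood, endothelium, fibroblasts, liver and epidermis, 10 were under 1 CPM in all libraries and COL1A1 was not. Genes of chromosomes 16 and 22 were lower in KO cells, with median log2 fold changes of -0.44 and -0.42, against -0.06 to 0.09 on the 21 other chromosomes. No SR protein or hnRNP gene lies on either chromosome.

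SR proteins hold RNA-recognition motifs and a part, most often the tail, rich in alternating arginine and serine. They bind exonic enhancers and bring U1 and U2 components to the splice sites, and kinases of the SRPK and CLK families phosphorylate its serines. Most hnRNPs carry RNA-recognition or KH domains beside glycine-rich stretches, coat the nascent transcript and often oppose SR proteins at the same exon. Members of both families restrain their own mRNA by splicing in exons that lead to nonsense-mediated decay, so that gene-level counts hold productive and unproductive transcripts together.

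The serine-rich part is visible in the coding sequence. The lines that follow show the 30 codons with the most serine codons in SRSF1 and SRSF9, which fell in KO cells, and in SRSF10 and TRA2A, which rose, with serine codons in capitals (canonical transcripts of GENCODE 44 on GRCh38, coding strand, which is the minus strand for each). They are shown so that the serine-rich stretches of members that fell and members that rose can be read side by side. The stretch of SRSF1 lies in exon 4 (chr17:58005472-58005561), that of SRSF9 in exon 4 (chr12:120462037-120462126), that of SRSF10 in exon 6 (chr1:23971151-23971240) and that of TRA2A in exons 2 and 3 (between the ends of chr7:23516525-23521792, with the intron left out).
SRSF1: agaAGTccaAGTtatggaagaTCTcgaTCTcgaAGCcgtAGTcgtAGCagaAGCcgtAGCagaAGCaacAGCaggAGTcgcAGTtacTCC
SRSF9: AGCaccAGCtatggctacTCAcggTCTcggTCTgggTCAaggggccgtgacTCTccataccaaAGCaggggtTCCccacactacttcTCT
SRSF10: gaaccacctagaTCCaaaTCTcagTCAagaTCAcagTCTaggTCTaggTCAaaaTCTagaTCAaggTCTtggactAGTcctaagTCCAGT
TRA2A: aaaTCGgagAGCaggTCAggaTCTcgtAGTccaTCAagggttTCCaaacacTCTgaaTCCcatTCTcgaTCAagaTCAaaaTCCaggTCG
Serine codons numbered 14 in SRSF1, 10 in SRSF9, 13 in SRSF10 and 14 in TRA2A. Each stretch is the richest of its gene. The richest stretches of HNRNPC, HNRNPL, HNRNPUL1 and PTBP2 hold 9, and so does that of SRSF3, an SR protein not shown. By this count SRSF3 matches these hnRNPs and SRSF9 is close to them.

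PTBP1 and PTBP2 are close paralogs that use different leucine codons. The 30 codons of each with the most leucine codons are shown with leucine in capitals, from exon 4 of PTBP1 (chr19:804104-804193, plus strand) and exons 4 and 5 of PTBP2 (between the ends of chr1:96769801-96770722, plus strand, with the intron left out).
PTBP1: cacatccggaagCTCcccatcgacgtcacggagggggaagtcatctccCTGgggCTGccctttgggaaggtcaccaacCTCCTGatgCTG
PTBP2: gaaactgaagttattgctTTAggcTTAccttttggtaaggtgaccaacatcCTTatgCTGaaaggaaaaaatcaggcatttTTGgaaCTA
Each stretch has 6 leucine codons, of which 0 in PTBP1 and 5 in PTBP2 are TTA, TTG, CTT or CTA. Over the whole coding sequence these 4 codons made up 13.2% of the leucine codons of PTBP1 and 78.9% of those of PTBP2, against a median of 38.3% over 19667 human coding sequences.

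As a family, SR proteins were rich in serine and poor in leucine. The median share of serine codons was 18.4% in the 14 SR proteins (7.69% to 24.8%), 7.30% in the 23 hnRNPs and 7.64% in all 19727 coding sequences, and 12 of the SR proteins lay above the 95th percentile of all (12.4%). SRSF1 and SRSF9 did not. Leucine codons had a median of 2.89% in SR proteins, 5.12% in hnRNPs and 9.98% in all, so both families use leucine less than most proteins, and only PTBP2, at 10.7%, was above the median of all. Arginine was above the 95th percentile in all 14 SR proteins (median 20.3%). Glycine was so in 18 of the 23 hnRNPs, whose median was 13.6%. These shares describe the annotated coding sequences and use no value from the libraries.

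Most members that differed were lower in KO cells, and in bulk RNA a lower share of cells and less RNA per cell cannot be told apart. Of the 36 tested, 16 fell and 3 rose at an adjusted p under 0.05 (quasi-likelihood test of edgeR, adjusted by Benjamini-Hochberg over all tested genes, as for every adjusted p that follows). Over all tested genes 20.9% were called, 12.1% lower and 8.79% higher. Without KO replicate 1, 11 of the 36 were lower and 1 higher, beside 12.3% of all genes called. Well-expressed genes are called more often, and among the 2230 tested genes averaging 100 CPM or more 38.7% were called and 23.4% were lower. Of the 32 members at that level 18 were called, 16 lower and 2 higher. Of the 14 SR proteins 5 fell and 2 rose, and of the 22 hnRNPs tested 11 fell and 1 rose. Median log2 fold changes were -0.18 among hnRNPs and -0.07 among SR proteins, and the latter turned to 0.015 with library size alone. The falls were moderate, from 12.4% for HNRNPUL2 to 39.7% for HNRNPL. Over the 36 members together the median was -0.17, beside 0.01 over all tested genes and -0.02 over those averaging 100 CPM or more.

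The split of directions depended on the scaling. With library size alone in place of edgeR's TMM scaling, which shifts the median of all tested genes from 0.01 to 0.09, 12 members were lower and 6 higher, or 66.7% lower in place of 84.2%, and 24.7% of all genes were called. With quantile normalization and limma-voom 14 were lower and 7 higher, again 66.7% lower, beside 20.0% of all genes called. With DESeq2 15 were lower and 1 higher, beside 13.4% of all genes.

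**Figure D1:**
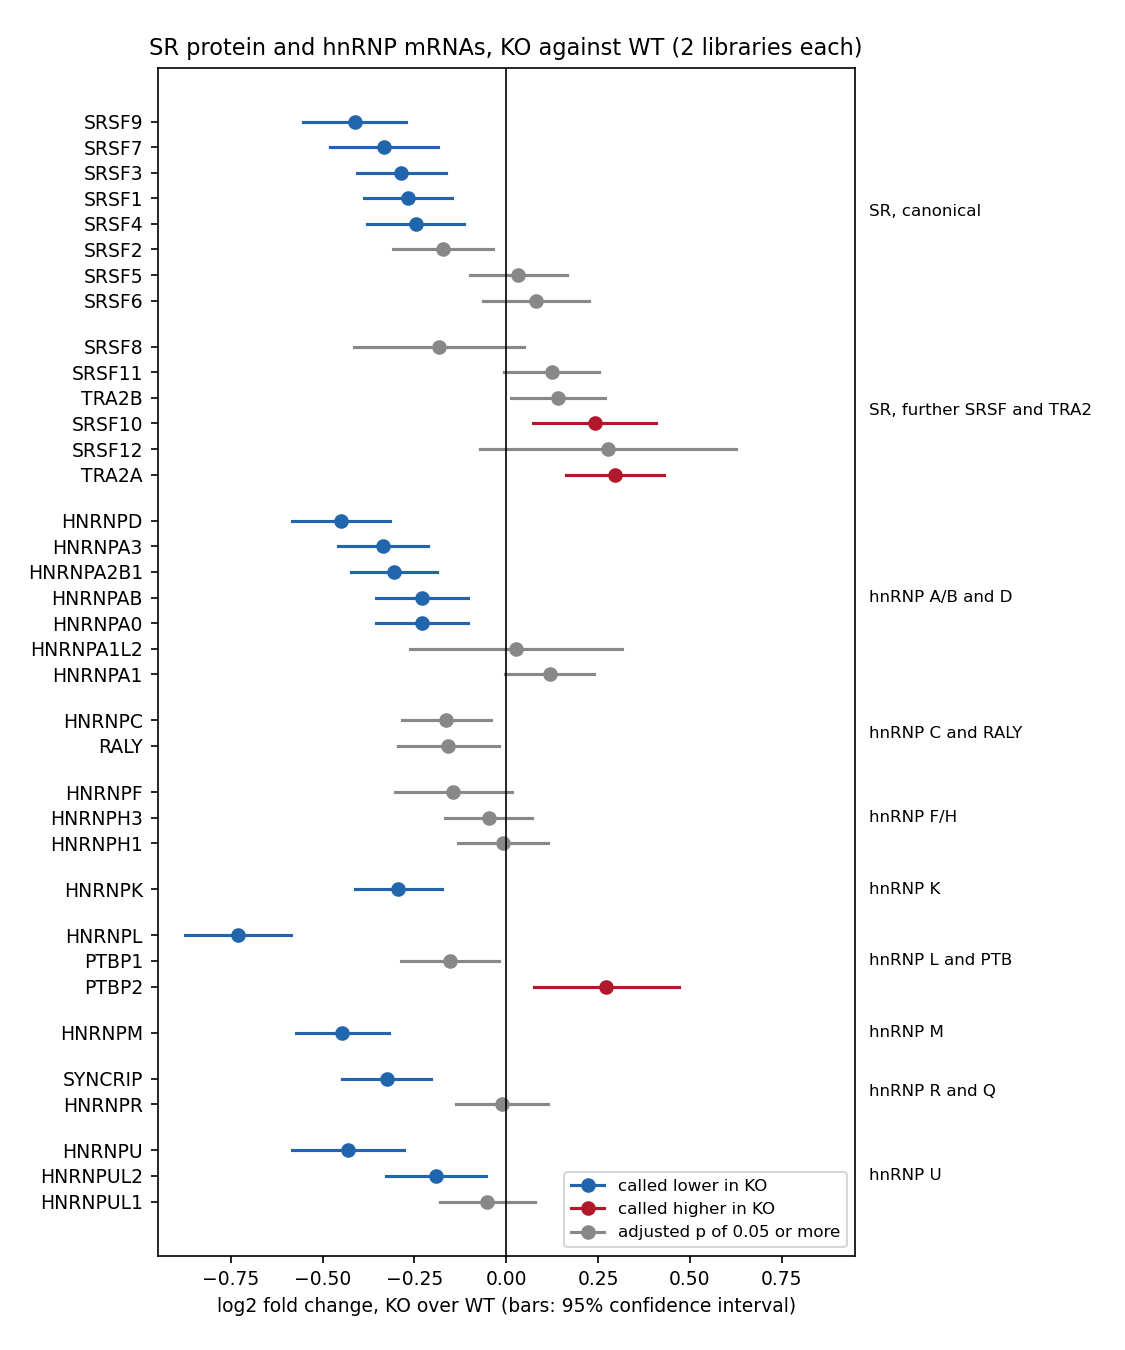
Log2 fold change (KO over WT) of each of the 36 tested members, grouped by role, with 95% confidence intervals from the edgeR fit on 2 libraries per genotype. Blue marks the 16 members called lower, red the 3 called higher and grey the rest, and HNRNPL lies farthest from 0 at -0.73.

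The levels themselves ranged widely. Per kb of exon, HNRNPA2B1 was the most abundant member at 1266 ± 4.51 CPM per kb in WT (mean ± SD, n = 2), followed by HNRNPD at 993 ± 55.5, HNRNPH1 at 547 ± 0.972 and SRSF9 at 523 ± 16.9. In KO cells the order of the leading members changed, since HNRNPH1 stood at 544 ± 31.7, HNRNPA1 at 548 ± 9.86 and SRSF9 at 393 ± 47.0 CPM per kb. HNRNPH1 and HNRNPA1 did not differ beyond their spread there. The lowest tested members in WT were SRSF10 (13.4 ± 1.49), SRSF8 (10.5 ± 0.561) and SRSF12 (4.34 ± 0.29 CPM per kb). Exon lengths are those of canonical transcripts, so the order between genes depends on the isoform that the cells use.

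**Figure D2:**
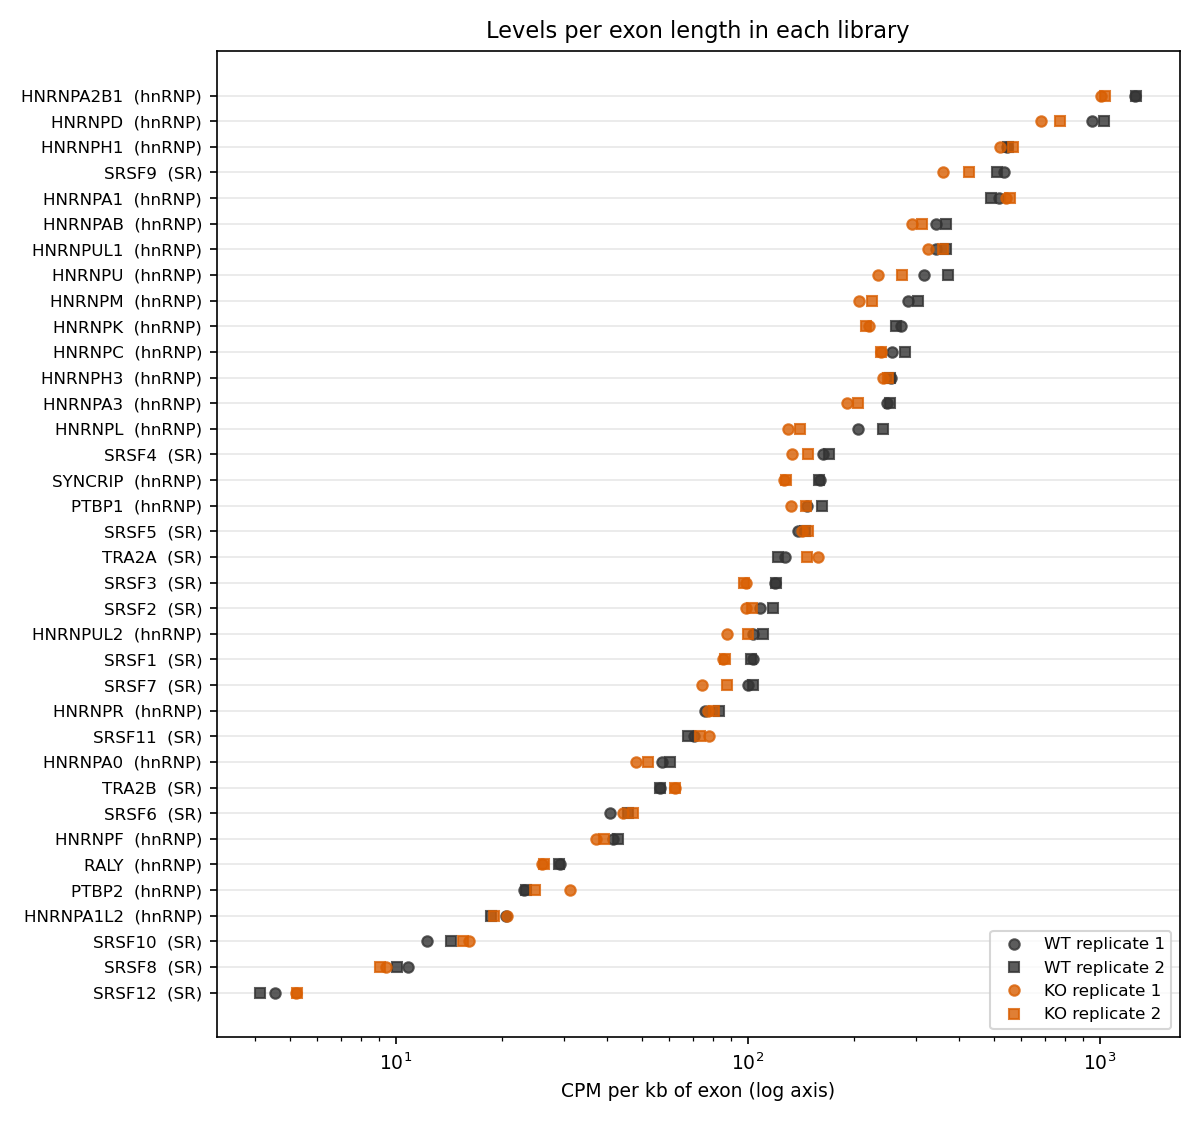
Level of each tested member in each library in CPM per kb of exon (log axis), ordered by the WT mean, with WT in dark grey and KO in orange, replicate 1 as circles and replicate 2 as squares. Levels run from SRSF12 at 4.34 to HNRNPA2B1 at 1266 CPM per kb in WT, and the genotypes differ far less than the genes do.

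All members together took 2.56% and 2.65% of the counts in the WT libraries and 2.31% and 2.41% in the KO libraries. The hnRNPs made up most of this, with 2.19% and 2.28% in WT and 1.96% and 2.05% in KO libraries, while the SR proteins took 0.368% and 0.369% in WT and 0.353% and 0.359% in KO libraries. The libraries of the genotypes did not overlap in any of these shares. Of single members, 23 were lower and 7 higher in both KO libraries than in both WT libraries in CPM, 30 of 36, beside 60.4% of all tested genes whose libraries did not overlap in either direction.

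Among the canonical SR proteins, which activate constitutive and regulated exons, 5 of 8 fell and none rose, with a median log2 fold change of -0.26. SRSF9 was the most abundant of them and fell most, with 616 and 589 CPM in WT and 414 and 491 CPM in KO libraries (log2 fold change -0.41, SE 0.07, adjusted p = 8.83e-05). SRSF7, an SR protein with a zinc knuckle that takes part in mRNA export, had 236 and 244 CPM in WT and 175 and 206 CPM in KO libraries (log2 fold change -0.33, SE 0.07, adjusted p = 0.00142). Both were lowest in KO replicate 1, and without that library SRSF7 stood at -0.22 and was not called. SRSF3, which links splicing to export and polyadenylation, had 505 and 511 CPM in WT and 419.8 and 414 CPM in KO libraries (log2 fold change -0.29, SE 0.06, adjusted p = 0.000899). SRSF1, the founding member of the family, had 555 and 547 CPM in WT and 454 and 462 CPM in KO libraries (log2 fold change -0.27, SE 0.06, adjusted p = 0.0016). In both genes the libraries of a genotype lay close together and far from the other genotype. SRSF4 had 377 and 392 CPM in WT and 307 and 342 CPM in KO libraries (log2 fold change -0.25, SE 0.06, adjusted p = 0.00664), and it was not called without KO replicate 1 (-0.17) or with library size alone (-0.16).

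The other canonical SR proteins did not pass the test. SRSF2, which recognises both C- and G-rich enhancers, stood at -0.17 (95% confidence interval -0.31 to -0.04, adjusted p = 0.0662), SRSF5 at 0.03 (-0.10 to 0.16) and SRSF6 at 0.08 (-0.06 to 0.22). For SRSF2 both KO libraries lay below both WT libraries, while for SRSF5 and SRSF6 the genotypes overlapped. SRSF2 was called lower without WT replicate 1 (-0.23), and its difference was smaller, and not called, without WT replicate 2 (-0.11) and with library size alone (-0.088).

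The further SRSF genes and the TRA2 pair held no gene that fell, and 2 of 6 rose, with a median log2 fold change of 0.19. TRA2A, one of a pair of activators that bind GAA-rich enhancers, had 228 and 218 CPM in WT and 283 and 263 CPM in KO libraries (log2 fold change 0.30, SE 0.06, adjusted p = 0.0016), and it was called higher under all 7 alternative settings and without each library. SRSF10, which represses splicing when it is dephosphorylated, as in heat shock and mitosis, had 94.2 and 110.3 CPM in WT and 124 and 119 CPM in KO libraries (log2 fold change 0.24, SE 0.08, adjusted p = 0.0356). The WT libraries of SRSF10 differed by more than the KO libraries did, and its call was lost without WT replicate 1 (0.14), without KO replicate 1 (0.21) and with DESeq2 (0.24). TRA2B, the paralog of TRA2A, stood at 0.14 (0.01 to 0.27) and was called higher only with library size alone and with limma-voom among those settings. SRSF11 at 0.12 (-0.01 to 0.25) was likewise called higher under these settings alone. SRSF12, at 14.8 to 18.9 CPM, stood at 0.28 (-0.07 to 0.63) and SRSF8, a near copy of SRSF2 whose counts are therefore uncertain, at -0.18 (-0.41 to 0.05). Whether the 2 groups of SR proteins differ from each other was not tested.

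In the A/B and D group, abundant hnRNPs that bind UAG and AU-rich motifs and repress exons, 5 of 7 fell and none rose, with a median log2 fold change of -0.23. HNRNPA2B1 had 4580.2 and 4603 CPM in WT and 3663 and 3762 CPM in KO libraries (log2 fold change -0.31, SE 0.06, adjusted p = 0.000312). It was the most abundant member in all libraries. With limma-voom on quantile-normalized counts its direction turned, to 0.61, whereas it lay between -0.31 and -0.22 under the other alternatives, and the cause was not tested. HNRNPD, also known as AUF1, binds AU-rich elements and speeds the decay of the mRNAs that hold them. It had 2927 and 3168 CPM in WT and 2096 and 2366 CPM in KO libraries (log2 fold change -0.45, SE 0.06, adjusted p = 1.43e-05). HNRNPA3 had 1420.0 and 1445 CPM in WT and 1096 and 1174 CPM in KO libraries (log2 fold change -0.34, SE 0.06, adjusted p = 0.000179). These genes were lower in both KO libraries by a margin wider than the spread within either genotype. HNRNPAB had 608 and 648 CPM in WT and 519 and 554 CPM in KO libraries (log2 fold change -0.23, SE 0.06, adjusted p = 0.00774), and HNRNPA0, an intronless gene, had 499 and 526 CPM in WT and 421 and 454 CPM in KO libraries (log2 fold change -0.23, SE 0.06, adjusted p = 0.00828). The calls of both were lost without WT replicate 2 (-0.18 and -0.19), without KO replicate 1 (-0.18 for each) and with library size alone (-0.14 for each), and that of HNRNPAB also with limma-voom (-0.14).

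HNRNPA1 was not among the members that fell. It had 1938 and 1846 CPM in WT and 2027 and 2079 CPM in KO libraries, higher in both KO libraries, but did not pass the test (log2 fold change 0.12, SE 0.06, adjusted p = 0.159, 95% confidence interval -0.0025 to 0.24), and it was called higher with library size alone (0.20) and with limma-voom (0.20). HNRNPA1L2, an intronless near copy of HNRNPA1, stood at 0.03 (-0.26 to 0.31). The counts of both are uncertain, since HNRNPA1 has many processed pseudogenes that can share its reads.

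HNRNPL gave the largest difference of the tested members, and it is grouped with the PTB pair, of which PTBP2 rose. HNRNPL binds CA-repeats and shapes the splicing of many alternative exons. It had 442 and 519 CPM in WT and 278 and 302 CPM in KO libraries (log2 fold change -0.73, SE 0.07, adjusted p = 3.09e-08, 95% confidence interval -0.87 to -0.59). It was called lower under all 7 alternatives, at -0.73 to -0.65, and lay between -0.84 and -0.61 with each library left out. PTBP1, the polypyrimidine-tract repressor of neuronal exons, had 472 and 520.0 CPM in WT and 425 and 469 CPM in KO libraries and did not pass the test (log2 fold change -0.15, SE 0.06, adjusted p = 0.0979). It was called lower without WT replicate 1 (-0.22) and without KO replicate 2 (-0.23), whereas without WT replicate 2 (-0.080), without KO replicate 1 (-0.082) and with library size alone (-0.068) its difference was smaller and not called. PTBP2, its neuronal paralog, had 76.9 and 77.8 CPM in WT and 104 and 82.5 CPM in KO libraries (log2 fold change 0.27, SE 0.10, adjusted p = 0.0437). The rise of PTBP2 rests on KO replicate 1, since KO replicate 2 was close to the WT libraries and the log2 fold change without KO replicate 1 was 0.09. Its call was also lost without WT replicate 1 (0.26), without WT replicate 2 (0.28) and with DESeq2 (0.27).

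The single-member groups, HNRNPM and HNRNPK, fell as well, and so did 1 of the 2 genes of the R and Q group. HNRNPM, a G- and U-binding regulator of alternative exons, had 706 and 756 CPM in WT and 513 and 560.1 CPM in KO libraries (log2 fold change -0.45, SE 0.06, adjusted p = 8.54e-06). HNRNPK, which binds C-rich RNA through KH domains, had 791 and 764 CPM in WT and 639.7 and 628 CPM in KO libraries (log2 fold change -0.29, SE 0.06, adjusted p = 0.000592). Both were called lower under all 7 alternatives and with each library left out. SYNCRIP, or hnRNP Q, had 443 and 441 CPM in WT and 349.7 and 355 CPM in KO libraries (log2 fold change -0.33, SE 0.06, adjusted p = 0.000251), while its paralog HNRNPR stood at -0.01 (-0.14 to 0.11).

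Of the hnRNP U group, proteins with a SAP domain that bind chromatin as well as RNA, 2 of 3 fell. HNRNPU, also called scaffold attachment factor A, had 2171 and 2553 CPM in WT and 1614 and 1889.7 CPM in KO libraries (log2 fold change -0.43, SE 0.07, adjusted p = 0.000129), and DESeq2 gave the same size (-0.43) without a call. HNRNPUL2 had 539 and 579 CPM in WT and 456 and 523 CPM in KO libraries (log2 fold change -0.19, SE 0.07, adjusted p = 0.0402). The 2 KO libraries of HNRNPUL2 were apart, and its call was lost without KO replicate 1 (-0.09), without WT replicate 2 (-0.14), with library size alone (-0.11), with upper-quartile scaling (-0.17), with limma-voom (-0.14) and with DESeq2 (-0.19). HNRNPUL1, the most abundant of the group per kb, had 1349 and 1438 CPM in WT and 1278 and 1412 CPM in KO libraries, which overlap (log2 fold change -0.05, SE 0.06, adjusted p = 0.609, 95% confidence interval -0.18 to 0.08).

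None of the tested members of the C and F/H groups passed the test. HNRNPC, which binds uridine tracts and keeps Alu elements out of mRNA, had 815 and 885 CPM in WT and 759 and 759.6 CPM in KO libraries (log2 fold change -0.16, SE 0.06, adjusted p = 0.051), just above the threshold, and it was called lower with limma-voom (-0.14), with DESeq2 (-0.17), without the filter on low counts (-0.16) and without WT replicate 1 (-0.22). Without WT replicate 2 (-0.10) and with library size alone (-0.079) the difference of HNRNPC was smaller and not called. RALY, a relative of HNRNPC, stood at -0.16 (-0.29 to -0.02). HNRNPH1, a binder of G-runs, had 1225 and 1228 CPM in WT and 1169 and 1269.5 CPM in KO libraries (log2 fold change -0.01, SE 0.06, adjusted p = 0.941, 95% confidence interval -0.13 to 0.11), with the WT libraries between the KO libraries. HNRNPF stood at -0.14 (-0.30 to 0.02) and HNRNPH3 at -0.05 (-0.17 to 0.07). HNRNPH2 had 0 counts in every library, whereas the entry for the RPL36A-HNRNPH2 read-through, which covers its exons, held 7476 and 10444 (WT) and 10452 and 10008 (KO) counts (log2 fold change -0.06). That entry also names RPL36A, and how its counts divide between the genes was not tested. Thus 0 counts for HNRNPH2 do not show that the gene is silent.

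**Figure D3:**
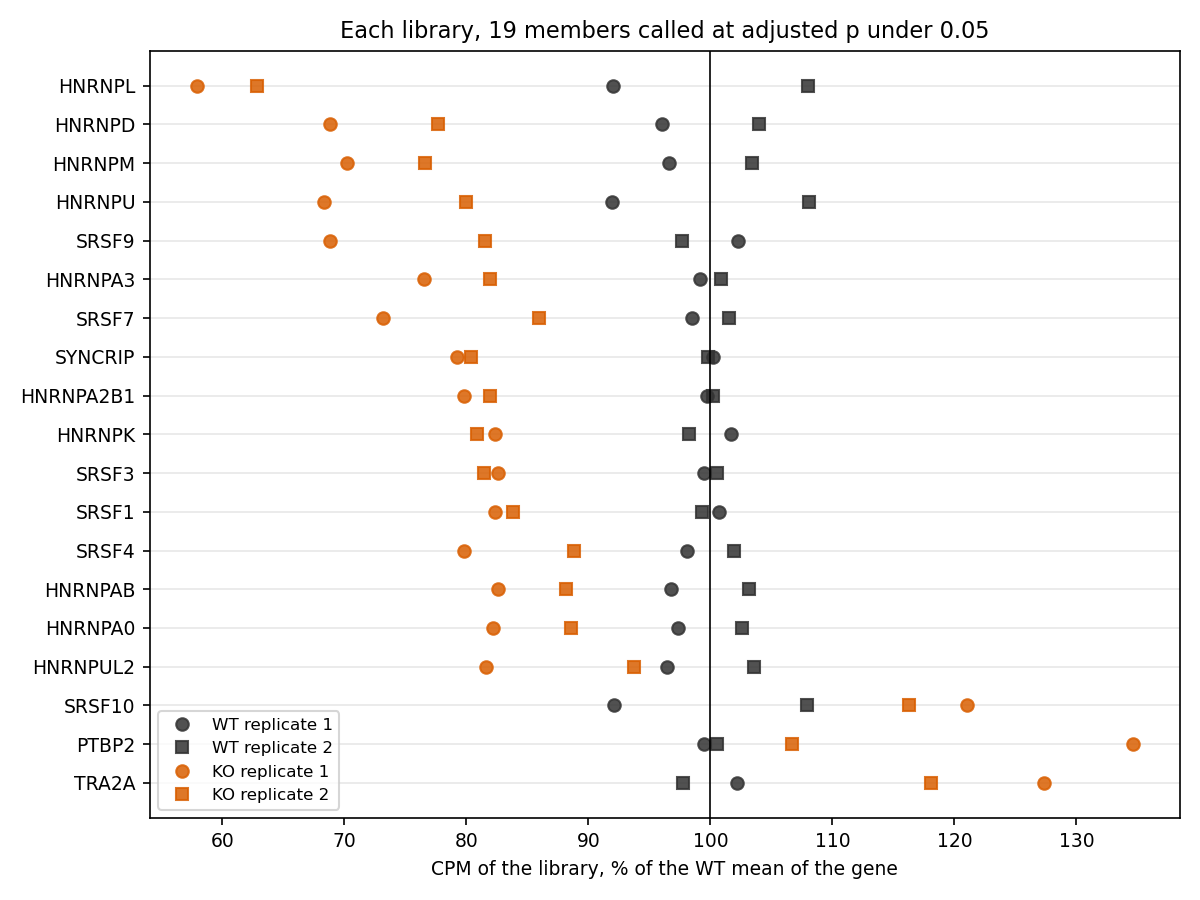
CPM of each library as a percentage of the WT mean of the gene, for the 19 members called, ordered by log2 fold change, with WT in dark grey and KO in orange, replicate 1 as circles and replicate 2 as squares. For all 19 the libraries of the genotypes do not overlap, but they were called on these same libraries, which favours such a gap. Of all tested genes, called or not, 60.4% do not overlap. KO replicate 2 lies near the WT libraries for HNRNPUL2 and PTBP2.

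Ratios within a library need no scaling between libraries. They were taken for 5 pairs of related genes and for the families, and since 2 libraries against 2 cannot give a two-sided exact permutation p below 0.333, no test was run. HNRNPA1 had 0.423 and 0.401 counts for each count of HNRNPA2B1 in WT and 0.553 and 0.553 in KO libraries, a log2 difference of 0.42. HNRNPR over SYNCRIP was 1.33 and 1.46 in WT and 1.71 and 1.75 in KO libraries. HNRNPU over HNRNPUL1 was 1.61 and 1.78 in WT and 1.26 and 1.34 in KO libraries. So within each of these pairs 1 gene gained on the other in both KO libraries. PTBP1 over PTBP2 was 6.14 and 6.68 in WT and 4.08 and 5.68 in KO libraries, with a wide gap between the KO libraries. TRA2A over TRA2B was 0.964 and 0.927 in WT and 1.09 and 1.01 in KO libraries. The summed SR proteins stood to the summed hnRNPs as 0.168 and 0.162 in WT and as 0.180 and 0.175 in KO libraries. The genotypes did not overlap in any of the 6 ratios. Each of the 5 pairs holds a member called on these same libraries, and the share of other gene pairs without overlap was not taken. Of single tested genes 60.4% did not overlap, so the count of ratios does not show a shift particular to these pairs.

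**Figure D4:**
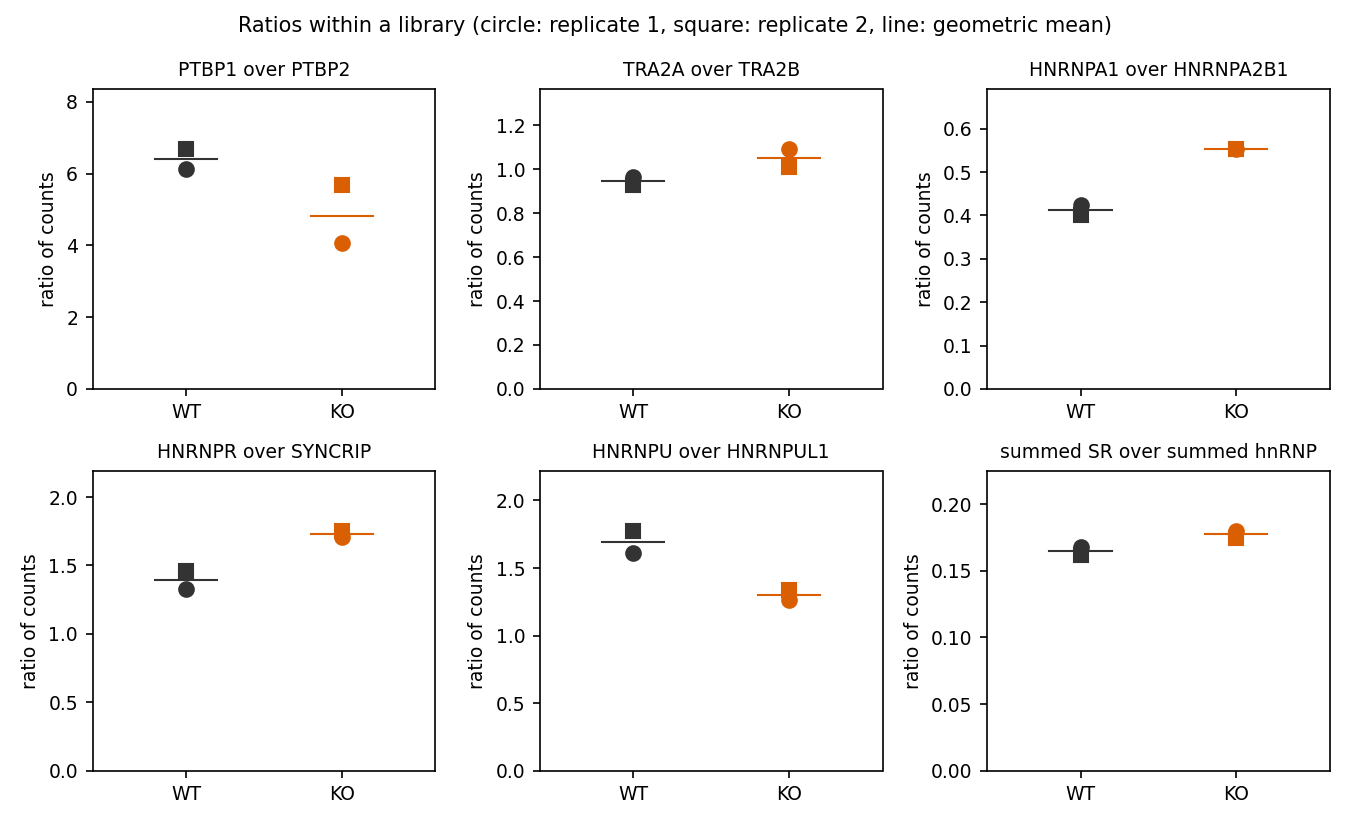
Ratio of counts within each library for 5 pairs of related genes and for the summed families, WT in dark grey and KO in orange, replicate 1 as circles, replicate 2 as squares and a line at the geometric mean of each genotype. In each panel the genotypes are apart, but the share of other gene pairs that are apart was not taken. The KO libraries of PTBP1 over PTBP2 (4.08 and 5.68) are the farthest from each other.

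Codon content was set beside the difference between genotypes as a description. Across the 36 tested members, which share the same 4 libraries, Spearman's rho with the log2 fold change was 0.41 for the share of serine codons, -0.12 for leucine codons, 0.27 for the share of TTA, TTG, CTT and CTA among leucine codons and -0.40 for glycine. These values pool unlike families. SR proteins and hnRNPs had median serine shares of 18.4% and 7.30% and median glycine shares of 7.39% and 13.6%. Their median log2 fold changes were -0.07 and -0.18, and rho within a family was not taken. The median share of leucine codons was 4.35% in the 16 members that fell, 2.29% in the 3 that rose and 4.04% in the 17 others. The median share of serine codons was 7.32% in the members that fell (4.01% to 24.1%), 17.4% in those that rose (6.78% to 18.3%) and 10.2% in the others. PTBP2, the member with the highest share of leucine codons, rose, a call that rests on KO replicate 1. SRSF9, the SR protein with the lowest share of serine codons, fell most of its family, but SRSF4, at 24.1% serine, fell too.

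The promoters of the members are GC-rich. RefSeq start sites on GRCh38.p14 were found for 34 of the 37 (not for HNRNPA1, SRSF2 and TRA2A), and the 250 bases before the start were searched on both strands for 6 short motifs. The GC box GGGCGG was in 23 of 34 (67.7%), beside 42.3% of all 27305 promoters, and the CCAAT box in 15 (44.1%, beside 33.0%). The TATA box TATAAA was in 5 (14.7%, beside 11.1%) and the ETS motif CCGGAAG in 4 (11.8%, beside 8.82%). The NRF1 motif and the cAMP-response element TGACGTCA were in none, beside 1.13% and 1.77% of all. The median GC content was 65.6%, beside 58.0% in all promoters. The 27305 promoters are not limited to genes expressed in these cells, and shares over tested genes alone were not taken. The windows of HNRNPL (chr19:38852348-38852597) and HNRNPD (chr4:82373992-82374241), which fell most, and of SRSF10 (chr1:23980328-23980577), which rose, all on the minus strand, are shown 5′ to 3′ with matches in capitals.
HNRNPL: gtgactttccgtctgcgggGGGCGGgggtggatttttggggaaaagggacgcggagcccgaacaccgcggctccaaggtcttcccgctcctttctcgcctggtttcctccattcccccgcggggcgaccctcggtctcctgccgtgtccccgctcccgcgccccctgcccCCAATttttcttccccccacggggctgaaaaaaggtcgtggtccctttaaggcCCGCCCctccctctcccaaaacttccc
HNRNPD: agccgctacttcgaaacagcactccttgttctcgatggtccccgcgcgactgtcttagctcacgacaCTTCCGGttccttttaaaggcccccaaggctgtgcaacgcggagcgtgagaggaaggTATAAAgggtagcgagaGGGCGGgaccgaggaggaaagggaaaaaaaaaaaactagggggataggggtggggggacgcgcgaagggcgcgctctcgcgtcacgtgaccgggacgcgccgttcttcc
SRSF10: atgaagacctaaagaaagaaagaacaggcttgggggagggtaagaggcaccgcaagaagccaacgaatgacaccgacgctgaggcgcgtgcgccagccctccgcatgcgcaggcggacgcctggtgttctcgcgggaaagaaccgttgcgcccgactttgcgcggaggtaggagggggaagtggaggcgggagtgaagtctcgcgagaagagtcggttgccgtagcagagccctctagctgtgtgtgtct
HNRNPL holds a CCAAT box and GC boxes, HNRNPD an ETS motif, a TATA box and a GC box, and SRSF10 none of the 6. No motif searched holds another, and a match is a description of the letters.

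Gene-level counts mix transcripts in these loci. In GENCODE 44, 29 of the 36 tested members (80.6%) have at least 1 transcript marked for nonsense-mediated decay, all 14 SR proteins among them, beside 47.3% of the 12955 tested protein-coding genes placed. HNRNPA2B1 alone has 35 such transcripts among 49. Other genes overlap some of the members that differed, CBX3 and NFE2L3 at HNRNPA2B1 (chr7:26171151-26201529), DYNLL1 and GATC at SRSF9 (chr12:120461672-120495946), COX20 at HNRNPU (chr1:244840638-244864560), NFE2L2 at HNRNPA3 (chr2:177212694-177223959) and PHYKPL at HNRNPAB (chr5:178204533-178211163). Whether strand was used in counting is not stated, so reads in the overlaps could be assigned to either gene. HNRNPL (chr19:38836370-38852347) is overlapped by 1 coding gene known only by its identifier, ENSG00000268083. HNRNPUL2 (chr11:62712630-62727457) is overlapped by the HNRNPUL2-BSCL2 read-through, and how reads were divided between them was not tested. No coding gene overlaps HNRNPM (chr19:8444767-8489114), SRSF7 (chr2:38743599-38751494) or TRA2A (chr7:23504780-23532041).

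Other genes of the splicing pathway were read from lists compiled by hand. Of 24 SR-related proteins tested, 9 fell and 3 rose, with RNPS1 at -0.87 and SRRM2 at -0.71 lowest and SCAF4 at 0.56 and PNN at 0.33 highest. Of those that fell, 3 lie on chromosome 16 or 22, RNPS1 and SRRM2 among them. Of 44 core spliceosome genes 10 fell and 5 rose, with DHX38 at -0.57 and DHX8 at -0.43 lowest and BUD31 at 0.50 and SYF2 at 0.47 highest, and 4 of the 10, including DHX38, lie on those chromosomes. Of 15 close relatives outside the rule, 4 fell and 2 rose, and EWSR1, on chromosome 22, was the lowest (-0.48). Of those that rose, only PCBP2 (0.17), which binds C-rich RNA as HNRNPK does, averaged 5 CPM or more. HNRPDL and HNRPLL, older symbols that name hnRNPs but do not start with HNRNP, stood at 0.03 and 0.04 and were not called. Of all tested genes 20.9% were called, and of those averaging 100 CPM or more 38.7%. The core spliceosome list, with 34.1% called, lay between these shares. The SR-related proteins and the close relatives lay above both. Whether any of these lists differs from other genes of like level was not tested.

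Kinases, phosphatases and import receptors act on SR proteins and hnRNPs after translation. Of 14 such kinases, phosphatases and import receptors, 2 rose and 1 fell, or 21.4% called, which is near the 20.9% of all tested genes. TNPO1, the import receptor of HNRNPA1 and other hnRNPs, rose by 0.46 on the log2 scale, PPP1CA, a catalytic subunit of protein phosphatase 1, by 0.21, and TNPO2 fell by 0.28. Of 24 tissue splicing regulators RBM5 (0.31) and MBNL1 (0.28) rose and none fell. Of 17 genes of nonsense-mediated decay, PNRC2 (0.39) and UPF3B (0.27) rose and SMG1 (-0.38), on chromosome 16, fell. The medians of the 6 lists lay between -0.10 and 0.08, beside 0.01 for all tested genes. All members together (median -0.17) and the hnRNPs (-0.18) were lower at the median than each of these lists. The SR proteins (-0.07) were not, since the SR-related list stood at -0.095. None of these differences was tested.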

How the data were processed

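RNA of 4 libraries, WT and KO replicates 1 and 2, was compared, with genotype and replicate taken from the labels. Raw counts, as whole numbers for each symbol, were deposited by the authors and are not normalized. The labels name a Zymo-Seq RiboFree total RNA kit with paired-end reads, and the submitters' processing notes the build hg19, whereas the paper's methods name an Illumina kit, STAR and RSEM for RNA-seq. Which pipeline made the counts, and whether it used strand, is not given in the sources used here. The methods give more samples per genotype than the labels, and the others were not analysed here. A second table of the authors holds their own KO against WT comparison (means, log2 fold changes, errors, p-values) and was not used.

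The genotypes were compared by the quasi-likelihood test of edgeR 4.0.16 under R 4.3.3, after TMM scaling, over the 13128 genes that reached 1 CPM in 2 or more libraries. P-values were adjusted by Benjamini-Hochberg, and calls were made below 0.05. CPM use TMM-scaled library sizes. DESeq2 1.42.0 and limma-voom (limma 3.58.1) with quantile normalization, the latter as in the paper's methods, served as alternatives, beside other scalings, filters, a threshold of 0.01, a replicate block and leaving out each library. The counts hold no molecular identifiers. With 2 libraries per genotype, not known to be separate cultures, the intervals cover the spread of these libraries only. No entry lacked a gene name.

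Genes were placed on GRCh38 by GENCODE 44, 17268 by symbol and 1204 by synonym, and 445 were not placed. Every member is named. Values of some other genes are not reported here. Values per library and the full test are given for members called and for the most abundant member of each role group, and from each further list at most the 2 highest and 2 lowest called genes with at least 5 CPM. Members and lists were chosen with earlier results of these data known. The class of at least 100 CPM and the promoters shown were chosen after values were seen. Tables and figures were made with Python 3.11.15, pandas 2.3.3, Biopython 1.88 and matplotlib 3.10.9.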

Additional observations from a re-analysis of the deposited data

How the results depend on the processing

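Of the 19 members called, 10 kept their direction and their call under all 7 alternative settings and without each library in turn. Library size alone called 6 members higher and put the medians of the SR proteins and the hnRNPs at 0.015 and -0.093, in place of -0.07 and -0.18, so that the direction of the SR protein median turned. Upper-quartile scaling put the SR protein median at -0.045, and limma-voom put it at -0.021 and called 7 members higher. DESeq2 and a threshold of 0.01 each called 1 member higher, and they called 1764 and 1594 of all genes in place of 2748. The replicate numbers share only a number, since the deviations of same-numbered libraries had a correlation of 0.026 across genes, and the replicate block called 22 members, 19 lower and 3 higher, SRSF2, PTBP1 and HNRNPC among them.

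With each library left out, members called ran from 12 (without KO replicate 1) to 20, those higher from 1 to 3, those lower from 11 to 19, all genes called from 1620 to 2591, the SR protein median from -0.077 to -0.022, the hnRNP median from -0.25 to -0.15 and THUMPD1 from -3.02 to -2.85. Besides HNRNPA2B1 (0.61 with limma-voom), the direction turned for members that were not called. HNRNPH1 stood at 0.076 and HNRNPR at 0.074 with library size alone, at 0.017 and 0.015 with upper-quartile scaling and at 0.017 and 0.055 with limma-voom. HNRNPH3 stood at 0.036 and 0.032 with library size alone and limma-voom, and HNRNPUL1 at 0.033 with library size alone. With each library left out, HNRNPH1 ran from -0.069 to 0.051, HNRNPR from -0.073 to 0.056, HNRNPUL1 from -0.13 to 0.020 and HNRNPA1L2 from -0.048 to 0.096. With 2 libraries per genotype, SRSF12 and HNRNPA1L2, with few counts, had the widest intervals, and smaller differences in them were not detectable at this depth.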
